A study of Mus musculus with 2 samples.

Results

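The 9 genes described here are established transcriptional targets of p53 that feed back on p53 itself or act in the response to DNA damage: Mdm2, Ccng1, Trp53inp1, Phlda3, Zmat3, Sesn1, Sesn2, Aen and Rrm2b. They were chosen by name, with older symbols accepted, so that Zmat3 was read from a probe annotated Wig1 and Aen from a probe annotated Isg20l1. All 9 were found among 16390 named genes, each through 1 probe, and all 9 had a ratio at both time points. The samples were bone marrow stromal cells of C57BL/6 mice taken 1 day after total body irradiation with 9.5 Gy, 3 days after the same dose, or without irradiation. RNA of each irradiated group was labelled with Cy3 and hybridised together with Cy5-labelled unirradiated RNA on 1 array, so the 2 time points rest on 1 array each. A total of 6 mice is stated for the series, and neither their division among groups nor any pooling, nor the way stromal cells were isolated, is given in the sources used here.

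Ionising radiation breaks DNA, which activates the kinases Atm and Chek2, and these release p53 from the ubiquitin ligase that normally marks it for destruction. Stabilised p53 then switches on genes that stop the cell cycle, repair DNA or kill the cell, and a further group that limits or tunes p53. The last group includes Mdm2, so that the response is self-limiting and can come in pulses. In bone marrow the p53 response is known for the rapid death of blood cell precursors after irradiation, while stromal cells are regarded as more radioresistant.

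Each value is the log2 of the ratio of the 2 dyes for a gene, with the median of all genes of that array set to 0. The labels name the dyes and not the numerator, and the titles name the unirradiated sample first. The direction was therefore read from lists that hold none of the 9 genes. Red cell precursor genes had medians of -3.18 at day 1 and -1.79 at day 3, and DNA replication genes had medians of -0.83 and -2.29, whereas lethal irradiation is known to deplete dividing red cell precursors. Mitotic genes, another list of dividing cells, did not run the same way at day 1, with a median of 0.88 and 10 of 22 at least 2-fold higher and 0 lower, whereas at day 3 their median was -3.17 and 16 of 18 were lower. Markers of white blood cells also ran the other way at day 1. There 17 of 17 pan-leukocyte and 17 of 17 granulocyte markers were at least 2-fold higher (medians 5.33 and 5.89). At day 3, 0 and 1 of 12 were higher and 3 and 6 lower (medians -0.29 and -1.03). Neither these markers nor the mitotic genes were used to set the direction. A positive value is taken, from the red cell and replication genes, to mean more of a transcript in irradiated RNA, a likely but not established direction. If the ratio ran the other way, every "higher" and "lower" would be exchanged. Base 2 of the logarithm is likewise a reading of the values, whose largest deposited size was 9.31.

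With 1 array per time point no p-value or replicate error can be given for any gene. Counts of higher and lower genes used a size of 2-fold, a log2 ratio of at least 1 in either direction. The spread that could be measured was that between different probes of 1 gene on the same array, with a pooled SD of 0.76 at day 1 (85 genes) and 0.58 at day 3 (116 genes). It leaves out differences between animals and hybridisations, and because each of the 9 genes has a single probe, it could not be measured for them. Whether the same unirradiated RNA served on both arrays is not given, so the 2 sets of ratios may share it.

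The ratios of cell type markers differed between the time points. At day 1, 17 of 17 measured pan-leukocyte markers were at least 2-fold higher, with a range from 2.59 to 8.17 and a median of 5.33. At day 3, 0 of 12 were higher and 3 were lower, with a range from -3.09 to 0.93 and a median of -0.29. Granulocyte markers had medians of 5.89 and -1.03, mesenchymal stromal markers -0.50 and 0.68, endothelial markers 0.57 and 1.62. Ratios give no level, so whether the labelled stromal cell type predominated could not be read from them. Of 16 mesenchymal markers named, 15 had a ratio at day 1, of which 4 were at least 2-fold higher and 4 lower. At day 3, 14 had a ratio, of which 5 were higher and 0 lower. They ranged from -1.61 to 2.31 at day 1 and from -0.42 to 2.59 at day 3, with the receptor gene Pdgfra near the low end (-1.22 and -0.22). The leukocyte antigen gene Ptprc was at 7.12 at day 1 and had no ratio at day 3. In such bulk RNA, more cells of a type and more RNA per cell cannot be told apart. At day 3, 15 of 17 endothelial markers were at least 2-fold higher and 1 lower, and 7 of 11 adipocyte markers were higher and 0 lower. Of 12 osteoblast markers, 1 was higher and 5 lower. Of all genes at day 3, 7.35% were higher and 6.85% lower. The part of blood cell content, or of the content of other cell types, in the values that follow was not tested.

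At 1 day after irradiation, 5 of the 9 genes were at least 2-fold higher in irradiated RNA and 0 were lower. The autophagy and stress gene Trp53inp1 was 13.1-fold above unirradiated RNA, the cyclin G1 gene Ccng1 8.87-fold, Mdm2 4.78-fold, Phlda3 3.04-fold and Zmat3 2.23-fold. The nuclease gene Aen, both sestrins and the ribonucleotide reductase gene Rrm2b were within 2-fold. The median of the 9 log2 ratios was 1.16, against 0 for all genes by construction. Of the 10434 genes measured on that array, 19.6% passed the same rule as higher and 11.1% as lower.

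At 3 days, 5 of the 9 genes were again at least 2-fold higher and 0 lower. Trp53inp1 was 6.17-fold, Phlda3 4.39-fold, Ccng1 3.84-fold, Zmat3 3.03-fold and Mdm2 2.08-fold above unirradiated RNA. Aen, Sesn1, Rrm2b and Sesn2 were within 2-fold. The median was 1.06, or 2.08-fold. Of the 11404 genes measured at day 3, 7.35% were past 2-fold on the higher side and 6.85% on the lower.

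**Figure D1:**
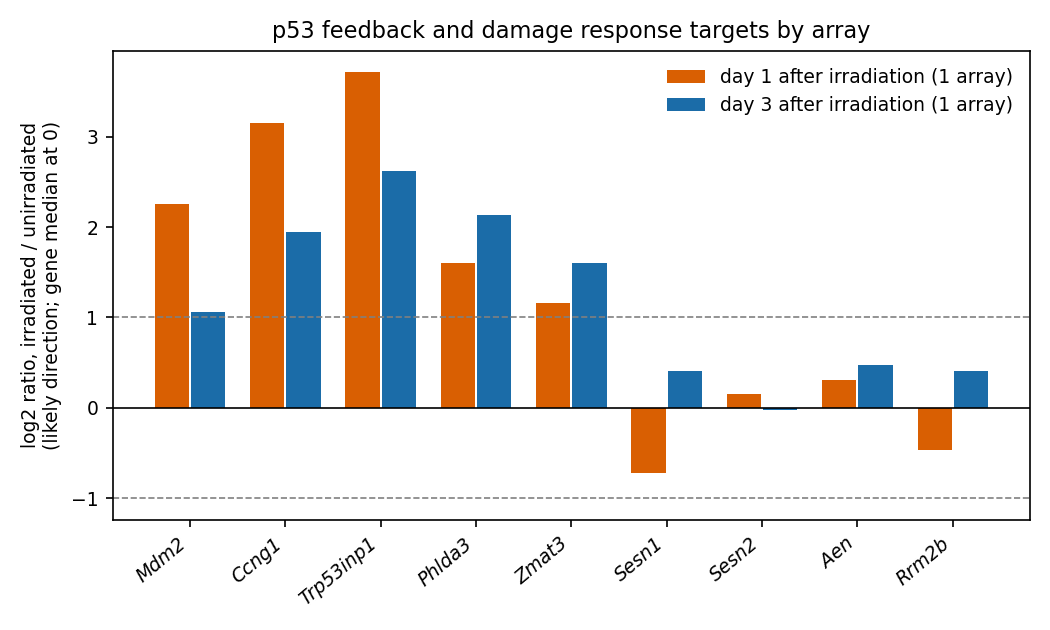
Log2 ratio of irradiated over unirradiated RNA (likely direction) for each of the 9 genes, orange at day 1 and blue at day 3, 1 array and 1 probe per bar, with dashed lines at 2-fold. Trp53inp1, Ccng1, Mdm2, Phlda3 and Zmat3 lie above the upper line in both colours, and Sesn1, Sesn2, Aen and Rrm2b lie between the lines.

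Among the regulators of p53 itself, Mdm2 encodes the ubiquitin ligase that marks p53 for degradation and is the classical negative feedback of the pathway. Its log2 ratio was 2.26 at day 1 and 1.06 at day 3. It was thus higher on both arrays, and 93.7% of genes lay below it at day 1 and 93.4% at day 3. At day 3 it was the member just past the 2-fold line, with Aen (0.47) the next below it, and with mesenchymal markers set to 0 it dropped within 2-fold, at 0.38.

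Ccng1 encodes cyclin G1, which brings the phosphatase PP2A to Mdm2 and so modulates the same loop. Its log2 ratio was 3.15 at day 1 and 1.94 at day 3. Only 363 of the measured genes stood higher at day 1 and 106 at day 3.

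Trp53inp1 encodes a nuclear body and autophagy protein that promotes phosphorylation of p53 and acts in antioxidant defence. It stood at a log2 ratio of 3.71 at day 1 and 2.62 at day 3. These were the top values of the 9 genes, but they exceeded the next gene by less than the probe SD, by 0.56 over Ccng1 at day 1 and by 0.49 over Phlda3 at day 3. At day 3, 14 of 11404 genes stood higher, against 279 of 10434 at day 1.

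The promoters of these feedback genes are shown because p53 acts by binding DNA at pairs of a 10-base unit, the p53 decamer, and the Ccng1 promoter carries such a pair. RefSeq promoter windows (GRCm38.p6, 250 bases before to 50 after a transcript start) were at hand for 6 of the 9 genes, in 8 windows, since Aen and Sesn1 have a further start each. Trp53inp1, Zmat3 and Rrm2b are named only. Both strands were searched together, as the decamer consensus is its own reverse complement. A decamer without mismatch was found in windows of Mdm2, Ccng1, Sesn1 and Aen, that is 4 of 6 genes, against 13 of 47 other p53 targets and 2582 of 27025 genes of the whole table (9.55%). Per window, 8.36% of 32851 held one. Genes with several windows had more room for a match. In the lines that follow, capitals mark the decamer and, for Ccng1, Sesn1 and Aen, also the adjoining 10 bases read as the partner unit.
Ccng1, chr11:40755417-40755516, minus strand: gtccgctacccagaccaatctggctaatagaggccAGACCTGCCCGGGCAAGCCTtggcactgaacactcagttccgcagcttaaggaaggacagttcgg
Mdm2, chr10:117710890-117710989, minus strand: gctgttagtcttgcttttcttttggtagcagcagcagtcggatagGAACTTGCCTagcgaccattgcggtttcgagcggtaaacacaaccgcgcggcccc
Sesn1, chr10:41887221-41887320, plus strand: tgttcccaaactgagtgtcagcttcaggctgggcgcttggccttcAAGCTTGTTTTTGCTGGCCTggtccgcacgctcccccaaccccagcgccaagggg
Aen, chr7:78895927-78895956, plus strand: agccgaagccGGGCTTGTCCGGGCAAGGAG

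In Ccng1 the decamer GGGCAAGCCT began at position -185 from the transcript start and directly followed a partner, AGACCTGCCC, with 1 mismatch to the consensus. A directly adjoining pair with at most 1 mismatch in all was present in 22 of 32851 windows (0.067%). The pairs of Aen and of the second start of Sesn1 had 3 mismatches each, all in the adjoining unit, a quality reached by 453 windows (1.38%). The sequences had been read before this search, so these shares describe the matches and are no test of them. The Aen decamer began at position 11 from its first start and at -121 from its second, and the Sesn1 decamer at -173. The Mdm2 decamer, at position -186, had no adjoining unit with the C and G of the CNNG core that the search required. In mouse and human the known p53 sites of Mdm2 lie in its first intron, outside these windows. A match is a description of letters and not of binding, and the windows of Phlda3 and Sesn2 and of the first start of Sesn1, which held no exact decamer, say nothing about sites elsewhere. Genes with an exact decamer thus stood both past 2-fold on each array (Ccng1 and Mdm2) and within 2-fold on each (Sesn1 and Aen).

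Phlda3 encodes a small pleckstrin homology domain protein that competes with the survival kinase Akt for membrane lipids and so restrains it. The log2 ratio of Phlda3 was 1.60 at day 1 and 2.13 at day 3. It was higher on both arrays, and 73 genes of the array stood above it at day 3, against 1165 at day 1.

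Zmat3 encodes a zinc finger RNA-binding protein that acts on the stability and splicing of transcripts, among them those of the p53 network. Its log2 ratio was 1.16 at day 1 and 1.60 at day 3. It was the member just past 2-fold at day 1, where Aen (0.31) was the next below. At day 3, 97.9% of genes lay below it, against 83.1% at day 1, and with mesenchymal markers set to 0 its day 3 value was 0.92.

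Aen encodes a nuclease that enters the nucleus and helps to fragment DNA during apoptosis. Its log2 ratio was 0.31 at day 1 and 0.47 at day 3, within 2-fold on both arrays. At day 3 it reached 1.04 with ribosomal protein genes set to 0 and turned to -0.21 with mesenchymal markers set to 0.

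Sesn1 and Sesn2 encode sestrins, which hold back the growth kinase complex mTORC1 through GATOR2 and support antioxidant defence. Sesn1 had a log2 ratio of -0.72 at day 1 and 0.41 at day 3, which became -0.27 with mesenchymal markers set to 0. Sesn2 had 0.15 at day 1 and -0.03 at day 3, and its day 3 value turned to 0.54 with ribosomal protein genes set to 0. Neither sestrin was outside 2-fold on either array. Sesn1 was 1.65-fold lower at day 1 and 1.33-fold higher at day 3, and Sesn2 stood close to the median gene, with 56.2% of genes below it at day 1 and 48.1% at day 3.

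Rrm2b encodes the p53-inducible small subunit of ribonucleotide reductase, which supplies deoxynucleotides for repair outside S phase. Its log2 ratio was -0.47 at day 1 and 0.41 at day 3, both within 2-fold. The day 1 sign is not firm, since it was 0.04 with ribosomal protein genes and 0.03 with mesenchymal markers set to 0, and the day 3 value turned to -0.27 in the second of these settings.

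The order of the 9 genes at day 1 was Trp53inp1, Ccng1, Mdm2, Phlda3, Zmat3, Aen, Sesn2, Rrm2b and Sesn1. Of the 8 steps between neighbours in this order, 2 were wider than the probe SD of 0.76, those from Ccng1 to Mdm2 (0.89) and from Zmat3 to Aen (0.85). At day 3 the order was Trp53inp1, Phlda3, Ccng1, Zmat3, Mdm2, Aen, Sesn1, Rrm2b and Sesn2, and the step from Mdm2 to Aen (0.59) was the 1 of 8 wider than the probe SD of 0.58. Phlda3 and Ccng1, which differed by 0.19 at day 3, and Sesn1 and Rrm2b, which differed by 0.0050, are therefore not ranked apart. The probe SD is that of 1 probe, whereas a step carries the error of 2. A step wider than the probe SD thus does not by itself set neighbours apart. The whole span of the 9 log2 ratios was 4.43 at day 1 and 2.65 at day 3.

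**Figure D2:**
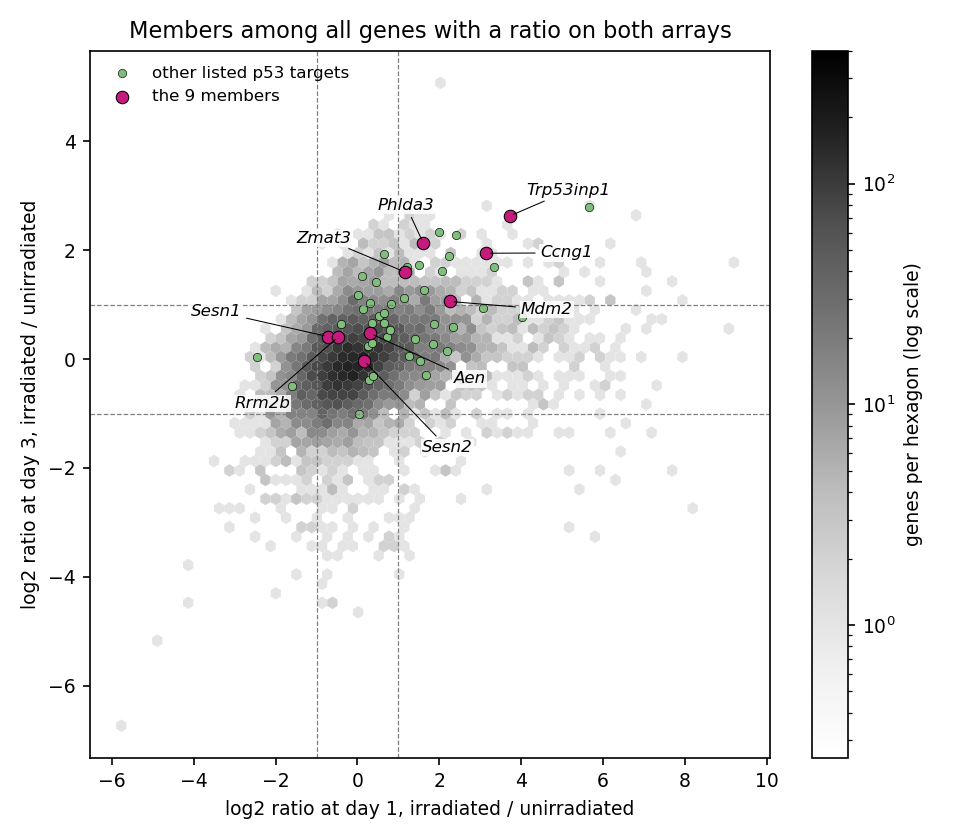
Log2 ratio at day 1 (x axis) against day 3 (y axis) for the 9800 genes with a ratio on both arrays, in grey hexagons shaded by the number of genes on a log scale, with other listed p53 targets in green, the 9 genes in magenta and dashed lines at 2-fold. Trp53inp1 (3.71 and 2.62), Ccng1, Mdm2, Phlda3 and Zmat3 lie in the upper right region past 2-fold on both axes, and Aen, Sesn1, Sesn2 and Rrm2b lie within the dense centre.

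Between the time points the 9 genes did not move together. The log2 ratio at day 3 minus that at day 1 was -1.20 for Mdm2, -1.21 for Ccng1 and -1.09 for Trp53inp1, so that Mdm2 was 2.30-fold, Ccng1 2.31-fold and Trp53inp1 2.13-fold lower at day 3. It was 1.13 for Sesn1, which was 2.19-fold higher at day 3, and 0.88 for Rrm2b. Phlda3 (0.53), Zmat3 (0.44), Aen (0.16) and Sesn2 (-0.18) differed by less than 2-fold. In all, 3 of 9 were at least 2-fold lower and 1 at least 2-fold higher, against 16.8% and 12.1% of 9800 genes measured at both times, and the median difference was 0.16, against -0.04 over all genes.

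Both arrays add to the error of such a difference, and their probe SDs combine to 0.95. The difference also depends on the zero point. With mesenchymal markers at 0, which shifts the difference by the change in those markers themselves, Sesn1 came to -0.049, the median to -1.02, and 5 of 9 genes lay past 2-fold on the lower side and 0 on the higher, with Mdm2 at -2.38, Ccng1 at -2.39, Trp53inp1 at -2.27, Sesn2 at -1.36 and Aen at -1.02. Phlda3 was then at -0.65, Zmat3 at -0.74 and Rrm2b at -0.30. This setting moved all genes by 0.50 at day 1 and by -0.68 at day 3, so the difference of every gene fell by the same amount. The share of all genes past 2-fold was not counted for it. The 5 of 9 can therefore not be read as a fall of these genes in particular. With the density peak at 0, 0 of 9 were past 2-fold on the higher side and the median was -0.03. Over the same interval 12 of 12 pan-leukocyte markers lay past 2-fold on the lower side (median difference -5.51), and 7 of 13 mesenchymal markers past 2-fold on the higher side (median difference 1.00).

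**Figure D3:**
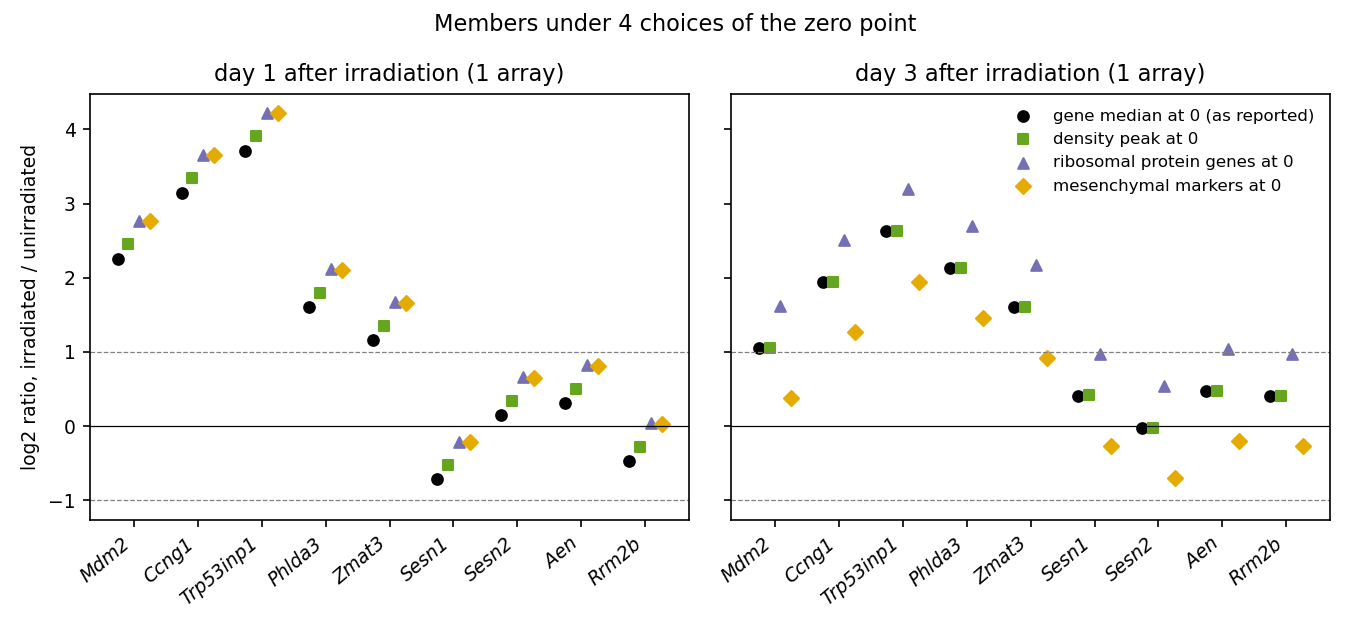
Log2 ratio of the 9 genes at day 1 (left) and day 3 (right) with the zero point set on the gene median, the density peak, ribosomal protein genes or mesenchymal stromal markers, and dashed lines at 2-fold. Trp53inp1, Ccng1 and Phlda3 stay above the upper line in every setting shown, while Mdm2 (0.38) and Zmat3 (0.92) drop below it at day 3 with mesenchymal markers at 0.

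Relatives of the 9 genes, encoded by genes of the same families and listed irrespective of p53, were examined next. Of 14 such genes, 11 had a ratio at day 1, of which 4 were at least 2-fold higher and 3 lower, with a median of 0.04. At day 3, 13 had a ratio, of which 0 were at least 2-fold higher and 5 lower, with a median of -0.24. Mdm4, the partner of Mdm2 in restraining p53, had no ratio on either array.

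The cyclin G2 gene Ccng2 stood at 2.93 at day 1, close to Ccng1 (3.15), but at 0.57 at day 3, where Ccng1 was at 1.94. Trp53inp2, which acts in autophagy, was at 1.94 and 0.41, below Trp53inp1 by 1.77 at day 1 and 2.21 at day 3. Phlda1 was at 1.60 at day 1, level with Phlda3, and at 0.44 at day 3, while Phlda2, an imprinted gene of placental growth, was at -1.71 at day 3. At day 3 each of these relatives thus lay below its p53 target by more than the probe SD of 0.58.

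Zmat1 (0.04 and 0.40), Zmat2 (0.21 and -0.45) and Zmat5 (-0.41 and -0.24) were within 2-fold on both arrays, and Zmat4 was at -1.22 at day 3. Isg20, an interferon-induced exonuclease related to Aen, was at 1.98 at day 1 and -1.48 at day 3, and Isg20l2 at -1.05 and 0.13. Sesn3, the sestrin controlled mainly by FoxO factors, had -0.65 at day 1 and 0.52 at day 3 and so kept within 0.11 of Sesn1 on both arrays. All 3 sestrins were within 2-fold on both arrays with the gene median at 0.

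Ribonucleotide reductase pairs the large subunit Rrm1 with either Rrm2, the small subunit of dividing cells, or Rrm2b. Rrm1 was at -1.02 at day 1 and -2.01 at day 3, and Rrm2 at -1.03 and -3.38. Rrm2b exceeded Rrm2 by 0.56 at day 1, less than the probe SD, and by 3.79 at day 3. DNA replication genes, a list that includes Rrm2, had 9 of 26 members at least 2-fold lower at day 1 and 24 of 26 at day 3.

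Other p53 targets, taken from lists chosen with earlier results of these data known, were set beside the 9 genes. Of 56 listed, 43 had a ratio at day 1, of which 22 were at least 2-fold higher and 2 lower, with a median of 1.13. At day 3, 47 had a ratio, of which 18 were at least 2-fold higher and 0 lower, with a median of 0.78. The shares at least 2-fold higher were 55.6% of the 9 genes at each time, against 51.2% of the other targets at day 1 and 38.3% at day 3. Over all genes the share was 19.6% at day 1 and 7.35% at day 3. The day 3 counts depended on the zero point. With mesenchymal markers at 0 they were 3 of the 9 genes and 9 of the 47 others, whose median was 0.098, and with ribosomal protein genes at 0 they were 6 of the 9 and 30 of the 47, with a median of 1.34. Of all genes at day 3, 1.86% were at least 2-fold higher in the first setting and 24.3% in the second. By group, these 2 settings gave 1 and 5 higher apoptosis targets, 3 and 10 cell cycle and growth targets, and 5 and 15 repair and other targets at day 3.

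Apoptosis targets were 8 of 11 at least 2-fold higher at day 1 (median 1.54) and 3 of 12 at day 3 (median 0.17, or -0.51 with mesenchymal markers at 0), with 0 lower at either time. Pmaip1, the BH3-only protein Noxa, was at 5.66 and 2.79, the death receptor gene Fas at 2.07 and 1.61, and Bbc3, which encodes Puma, at 0.53 and 0.79. The inflammatory caspase gene Casp1 was at 3.06 and 0.94 and the TRAIL receptor gene Tnfrsf10b at 1.54 and -0.04. Siva1 was at 0.29 and -0.38 and Aifm2 at 0.37 and -0.32. Pidd1, of the complex that activates caspase-2, was at -0.028 at day 3. Bax was not analysed here.

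Cell cycle and growth targets were 8 of 14 at least 2-fold higher at day 1 (median 1.70) and 5 of 13 at day 3 (median 0.84), with 0 lower. The cell cycle inhibitor Cdkn1a was at 2.23 and 1.90 and the polo-like kinase gene Plk2 at 2.42 and 2.27. Gadd45a, a stress sensor linked to repair, was at 4.02 and 0.78, Plk3 at 3.33 and 1.69, and the antiproliferative gene Btg2 at 1.87 and 0.64. Ppm1d, the phosphatase that ends p53 and Atm signalling and so forms a further feedback, was at 0.64 and 0.65, within 2-fold at both times, and Sfn, which encodes 14-3-3 sigma, at 0.26 and 0.23. Ndrg1, a stress and differentiation gene, was at 0.14 and 0.93, and the ubiquitin ligase subunit gene Fbxw7 at 0.73 and 0.41. Gdf15 had no ratio on either array.

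Repair and other targets were 6 of 18 at least 2-fold higher and 2 lower at day 1 (median 0.40), and 10 of 22 higher and 0 lower at day 3 (median 0.80). Dcxr, a carbonyl reductase, was at 1.997 and 2.33, the translesion polymerase gene Polk at 1.505 and 1.72, and Eda2r, a receptor of the tumour necrosis factor family, at 2.001 at day 3 with no ratio at day 1. Of the nucleotide excision repair genes, Xpc was at 2.19 and 0.15 and Ddb2 at 0.36 and 0.30. Fancc, of the Fanconi anaemia core complex, was at -2.45 and 0.05, Pank1, of coenzyme A synthesis, at -1.60 and -0.49, and Ddit4, another mTORC1 inhibitor, at 0.44 and 1.42. The translesion polymerase gene Polh was at 0.036 and -0.9998, and Rps27l, a ribosomal protein relative, at 0.80 and 0.52. Tigar had no ratio on either array.

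**Figure D4:**
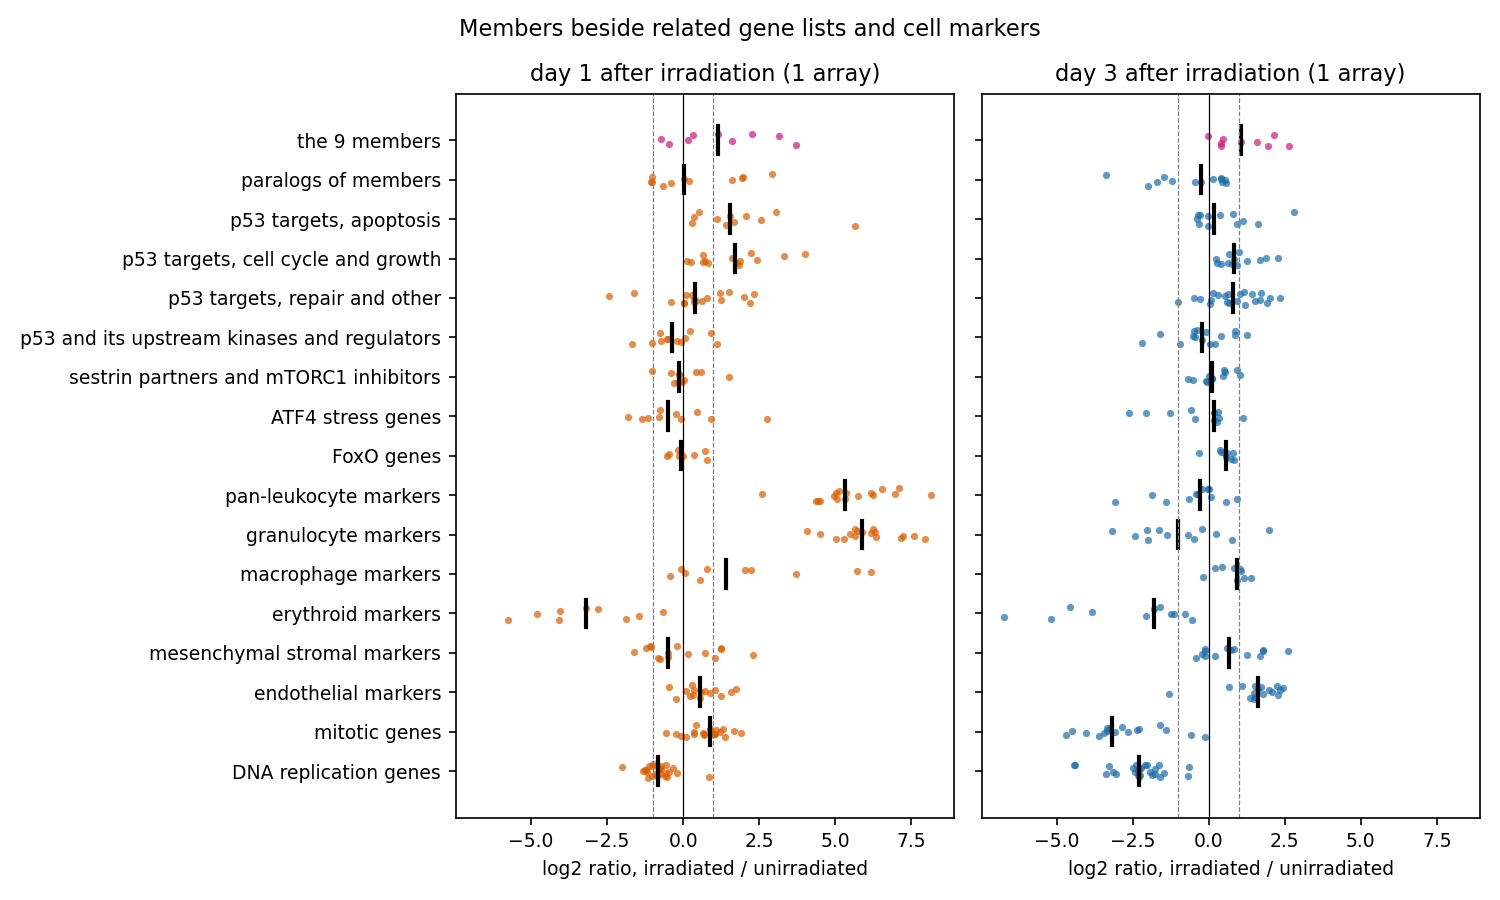
Log2 ratios of the 9 genes (magenta, top row), of related gene lists and of cell type markers at day 1 (left) and day 3 (right), 1 point per gene with the list median as a black bar and dashed lines at 2-fold. The 9 genes have medians of 1.16 and 1.06, while pan-leukocyte markers have medians of 5.33 and -0.29 and DNA replication genes -0.83 and -2.29.

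Genes that act upstream of the 9 targets were examined as a further list. The 19 genes with a probe were p53 relatives, kinases, ligases, ribosomal proteins and other regulators. Of these, 12 could be read at day 1, of which 1 was at least 2-fold higher and 2 lower. At day 3, 15 could be read, of which 1 was higher and 2 lower. The list medians were -0.36 and -0.23. They became 0.15 and 0.34 if ribosomal protein genes, which include the listed Rpl5 and Rpl11, define 0. Atm was at 0.05 and -0.40. The checkpoint kinase genes Chek1 (-0.77 and -2.20) and Chek2 (-0.08 and -1.61) were at least 2-fold lower at day 3. The deubiquitinase gene Usp7, which stabilises Mdm2 and p53, was at 0.93 and 0.87, Cdkn2a, whose Arf product binds Mdm2, at 0.86 at day 3, and the damage mediator Mdc1 at 1.24 at day 3. The acetyltransferase gene Kat5 was at -0.95 at day 3. Trp53 was not analysed here.

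Sestrins are also induced by ATF4 and FoxO factors, and lists of both were examined. Of 10 ATF4 stress genes at day 1, 1 was at least 2-fold higher and 3 lower, and of 11 at day 3 again 1 higher and 3 lower. The medians of -0.49 and 0.17 changed sign with the zero point, to 0.02 at day 1 with ribosomal protein genes at 0 and to -0.51 at day 3 with mesenchymal markers at 0. Atf4 was at 0.45 and 0.18 and Ddit3, which encodes Chop, at 0.92 and 0.34. Asns, for asparagine synthesis, was at -1.35 and -2.06 and Psat1, for serine synthesis, at -0.23 and -2.63, while the myeloid and stress factor Cebpb was at 2.75 and 0.17. Shmt2, of mitochondrial serine use, was at -1.16 and -1.27, the cystine transporter gene Slc7a11 at 1.11 at day 3, and Atf3 at -0.79 and 0.30. Trib3 had no ratio on either array.

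Of the FoxO genes, 0 of 8 at day 1 and 0 of 9 at day 3 were outside 2-fold, although 2 and 6 were at least 2-fold higher with ribosomal protein genes at 0. In that setting 31.8% of all genes at day 1 and 24.3% at day 3 were at least 2-fold higher. The medians of the FoxO genes were -0.07 at day 1, or 0.44 if ribosomal protein genes define 0, and 0.58 at day 3, which turned to -0.10 with mesenchymal markers at 0. Foxo1 was at -0.54 and 0.60, Foxo3 at -0.31 at day 3, and Foxo6 at 0.72 and 0.38. The FoxO-linked genes Txnip (0.35 and 0.72), Bcl6 (0.79 and 0.49) and Klf2 (-0.14 and 0.39) were likewise within 2-fold.

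The partners of sestrins in mTORC1 control were mostly within 2-fold, with 1 of 11 higher and 1 lower at day 1 and 1 of 12 higher and 0 lower at day 3. The medians were -0.12 and 0.10, and became 0.39 at day 1 if ribosomal protein genes define 0 and -0.58 at day 3 with mesenchymal markers at 0. Prkab1, a regulatory subunit of AMPK, was at 1.51 and 0.11, the catalytic subunit gene Prkaa2 at -0.14 and 1.02, the GATOR1 gene Nprl3 at -1.01 and 0.01, and Tsc2 at -0.03 and -0.08. Prkaa1, the other catalytic AMPK subunit, was at 0.59 and 0.55, the GATOR2 gene Sec13 at -0.39 and -0.69, and the GATOR1 gene Depdc5 at -0.53 at day 3. Tsc1 had no ratio on either array.

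The genes nearest to the pair of member medians (1.16 and 1.06), by Euclidean distance over the 2 arrays, were sought among 9562 other genes with ratios on both arrays and a current symbol that is no clone, predicted gene or accession. The pair of medians stands for no single gene, since the 9 genes were spread widely around it. The 5 nearest were Znfx1 (1.20 and 1.09), Sap18 (1.22 and 1.05), Ei24 (1.13 and 1.12), Stx3 (1.19 and 1.13) and Fam76b (1.23 and 1.02), at distances between 0.056 and 0.084. Ei24 is itself on the list of p53 targets. Nearness over 2 arrays describes 2 values only. The distances are far smaller than the probe SDs of 0.76 at day 1 and 0.58 at day 3, so the choice of these 5 genes is not firm.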

How the data were processed

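The authors' deposited values were 1 log ratio per probe and array, read here as log2 and already centred (medians 0.0003 and -0.0001). Per the labels' protocols, total RNA was amplified as amino allyl RNA and coupled to dyes. Scanner, background correction, normalisation and the filter that left 40.5% and 34.3% of 23473 probes without a ratio are not given in the sources used here. Arrays have no read depth, and precision is limited by having 1 array per time point.

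Platform symbols were updated through RefSeq (GRCm38.p6): 12622 probes had a current symbol, 3947 an older name of 1 gene, 59 an older name of several genes and 3 no match (both kept as given), and 6842 were unnamed. Probes of a gene were averaged and the gene median subtracted (-0.012 and 0.016). Genes, lists and counts were handled in Python 3.11.15 with pandas 2.3.3, and the counting was tested on simulated data. Members and lists were chosen with earlier results of these data known, and the promoter search after the sequences had been read.

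Named were all members and relatives, of the p53, mTORC1, ATF4 and FoxO lists the 3 highest and 3 lowest genes by mean ratio, a fixed set of pathway genes and the 5 nearest genes. The rule also covered cell type and proliferation lists, which are given by counts and medians. Alternatives covered the zero point, probe averaging, gene names, size rule and logarithm.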

Additional observations from a re-analysis of the deposited data

Results flagged for a closer look

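For 3 of the 9 genes the ratio pointed in opposite directions at the 2 time points, a difference that was not tested and rests on 1 array each. Sesn1 was at -0.72 at day 1 and 0.41 at day 3. Rrm2b was at -0.47 at day 1 and 0.41 at day 3. Sesn2 was at 0.15 at day 1 and -0.028 at day 3. All 6 values are within 2-fold. For Rrm2b (0.88) and Sesn2 (-0.18) the day 3 minus day 1 difference was smaller than the combined probe SD of 0.95. The opposite signs also depended on the zero point. With ribosomal protein genes at 0, Rrm2b was at 0.04 and 0.97 and Sesn2 at 0.66 and 0.54. With mesenchymal markers at 0, Sesn1 was at -0.22 and -0.27. Sesn1 kept its opposite signs in the first of these settings, and Sesn2 in the second. Rrm2b also had opposite signs in the second, but exchanged, at 0.03 at day 1 and -0.27 at day 3.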

How the results depend on the processing

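The count of 5 higher genes at day 1 became 4 with symbols as annotated, where 7 of the 9 genes were found, and 4 under a 3-fold rule, and it was 5 in the other alternatives. With mesenchymal markers at 0, the day 3 count was 3 and the day 3 median 0.38, the median difference between times was -1.02 with 0 genes higher and 5 lower, and the difference for Sesn1 turned to -0.049. That setting lowered the difference of every gene by the same amount, and the share of all genes past 2-fold was not counted for it. The median difference of the 9 genes was also below 0 with the density peak at 0 (-0.03) and with symbols as annotated (-0.18). With mesenchymal markers at 0 the day 3 medians of red cell and replication genes were -2.47 and -2.96. The count of genes at least 2-fold higher at day 3 than at day 1 was 0 with the density peak at 0, and under a 3-fold rule it was 0 with 0 lower, while a 1.5-fold rule gave 2 higher and, at day 1, 1 gene lower. Of all genes at day 1, 11.4% were higher under the 3-fold rule, and 29.4% were higher and 24.3% lower under the 1.5-fold rule. The shares of all genes between times were not counted for these settings. Read as natural logarithms, the values gave 1 gene lower at day 1, 2 higher between times, and medians of -4.59 and -2.58 for red cell genes and -3.30 for replication genes at day 3. In that reading 20.5% of all genes were lower at day 1. The red cell and replication medians stayed below 0 at both times in all 9 alternatives to the zero point, probes, names and logarithm. The logarithm setting only rescales values and could not change these signs. The probe settings could hardly move them, since the genes of both lists had single probes. None of the 9 bears on which dye is the numerator.

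The share of all genes at least 2-fold higher was 31.8% at day 1 and 24.3% at day 3 with ribosomal protein genes at 0, which moved all genes by 0.51 and 0.57, against 3.57% and 2.34% lower. With mesenchymal markers at 0, which moved all genes by 0.50 and -0.68, the shares were 31.6% higher and 3.67% lower at day 1 and 1.86% higher and 29.4% lower at day 3. The density peak moved genes by 0.19 at day 1. No replicate could be left out, since each time point has 1 array. No paired analysis was possible because each group has 1 array. Signal over background was not analysed here.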
